A study of Danio rerio with 12 samples.

Results

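Erythrocyte genes were followed in RNA sequencing libraries of regenerating zebrafish ventricles. The set comprised 9 gene names, hbaa1, hbba1, hbba2, alas2, slc4a1a, cahz, epor, gata1a and tfr1a, and its members were every row of the per-library tables that carried one of these names. Of these names, 8 matched a row exactly. The name hbba1 was split over 2 rows, hbba1_1 and hbba1_2, which gave 10 rows among the 25281 genes of the tables. This rule used the gene names and no measured value, but the names were chosen with earlier results of these data known. Hearts came from adult fish of 6 months to 1 year of age. RNA was taken from ventricles, which in amputated fish had lost part of the apex. In experiment 1, WT fish (AB*) and dusp6 mutants (dusp6 pt30a/pt30a), whose gene encodes a phosphatase that dampens ERK signalling, each gave 1 library of uninjured ventricles and 1 library of ventricles taken 3 days post-amputation (dpa). In experiments 2 to 4, called replicates 2 to 4, WT (AB*) and foxm1 mutant ventricles at 3 dpa had 3 libraries each. The labels give the foxm1 mutants as sa10708/sa10708, sa10708/sa10709 and sa10708/sa10710 in replicates 2, 3 and 4. The methods of the study name a single foxm1 genotype, the first of these, so whether the replicates differed in genotype is uncertain. The mutations were carried in the germ line and so by heart and blood alike. Hearts were pooled, and p-values cover the spread between libraries of pools and not between fish. For 3 dpa against uninjured ventricles, both genotypes of experiment 1 were put together, and edgeR's main test had no term for genotype. The SDs, standard errors and p-values of this comparison in experiment 1 therefore mix genotype differences with the spread between pools. These cannot be separated, as no genotype had a second library in either state of experiment 1.

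Red cells carry oxygen on haemoglobin, a tetramer with a pair of alpha and a pair of beta chains, each holding a haem. Unlike those of mammals, the red cells of fish keep their nucleus in the circulation. The adult alpha and beta globin genes of zebrafish lie side by side in divergent pairs, and the embryonic globin genes lie next to them and in a separate cluster. Haem is built from an intermediate that Alas2, the erythroid aminolevulinate synthase, makes at the start of the pathway, and its iron enters through the transferrin receptor Tfr1a. Slc4a1a, band 3 of the red cell membrane, exchanges bicarbonate for chloride, and the carbonic anhydrase Cahz makes that bicarbonate. Gata1a drives erythroid transcription, and the erythropoietin receptor Epor keeps red cell precursors alive. A ventricle removed from the fish holds blood in its lumen and vessels and, after amputation, in the clot that seals the wound.

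All haemoglobin members lay on chromosome 3 of the GRCz11 assembly. hbba2 (ENSDARG00000069734, 55091230 to 55092051, minus strand), hbba1_1 (ENSDARG00000097238, 55098457 to 55099272, minus strand), hbaa1 (ENSDARG00000097011, 55100045 to 55100936, plus strand) and hbba1_2 (ENSDARG00000089087, 55103445 to 55104310, minus strand) encode beta, beta, alpha and beta chains. Beside them lay the alpha globin rows hbaa2 (55093581 to 55094399) and si:ch211-5k11.8 (55105066 to 55105966, for which RefSeq lists hbaa1.2 among its synonyms), which were not members. These 6 adult rows formed 3 divergent pairs within 14737 bases, with 1529 bases between hbba2 and hbaa2, 772 between hbba1_1 and hbaa1, and 755 between hbba1_2 and si:ch211-5k11.8. The other members were alas2 (ENSDARG00000038643, chromosome 8, 21353878 to 21369028), slc4a1a (ENSDARG00000012881, chromosome 3, 20065861 to 20092124), cahz (ENSDARG00000011166, chromosome 2, 29477383 to 29485408), tfr1a (ENSDARG00000101322, chromosome 2, 4849269 to 4874966), gata1a (ENSDARG00000013477, chromosome 11, 25411914 to 25418856) and epor (ENSDARG00000090834, chromosome 3, 14543953 to 14561096). No sequence of these genes was used here.

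The libraries of experiment 1 held 54229254 to 67236702 reads assigned to genes, and those of experiments 2 to 4 held 17654534 to 21245883. Uniquely mapped reads made up 54.1% to 72.2% of the reads of hbba1_1 and 67.2% to 74.6% of those of hbba1_2. They made up 67.5% to 72.6% of those of alas2, so the assignment of reads to these rows is uncertain. The share was 89.0% to 97.1% for hbaa1 and at least 99.7% for the other 6 members. Intronic reads were at most 2.96% of the reads of the haemoglobin members, 8.24% to 28.3% of those of epor and 8.64% to 14.0% of those of gata1a. Mitochondrial genes took 16.0% and 16.9% of the reads of the uninjured libraries and 8.001% to 12.6% of those at 3 dpa.

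The member haemoglobin genes took a larger share of the reads at 3 dpa than in uninjured ventricles. hbaa1, hbba1_1, hbba1_2 and hbba2 together took 1.33% of the reads of the WT uninjured library and 0.941% of those of the dusp6 mutant uninjured library. At 3 dpa in experiment 1 they took 5.04% in WT and 3.01% in dusp6 mutant ventricles. The shares at 3 dpa in experiments 2 to 4 were 5.25%, 5.54% and 4.999% in WT and 4.16%, 5.48% and 5.23% in foxm1 mutants. No library at 3 dpa was as low as an uninjured library. The 95% Wilson intervals of these shares extended at most 0.0107 percentage points to either side and cover counting error only. In experiment 1 the mean share was 1.14% ± 0.275 (SD, n = 2) uninjured and 4.03% ± 1.43 (SD, n = 2) at 3 dpa, 3.55 times higher. The exact two-sided permutation test gave p = 0.33, which is the smallest p that 2 against 2 libraries allow. As a share of the reads outside mitochondrial genes the means were 1.36% and 4.46%, 3.29 times higher. In a bulk sample, more red cells in the ventricle, more of these transcripts in each red cell and less RNA from other cells cannot be told apart.

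**Figure D1:**
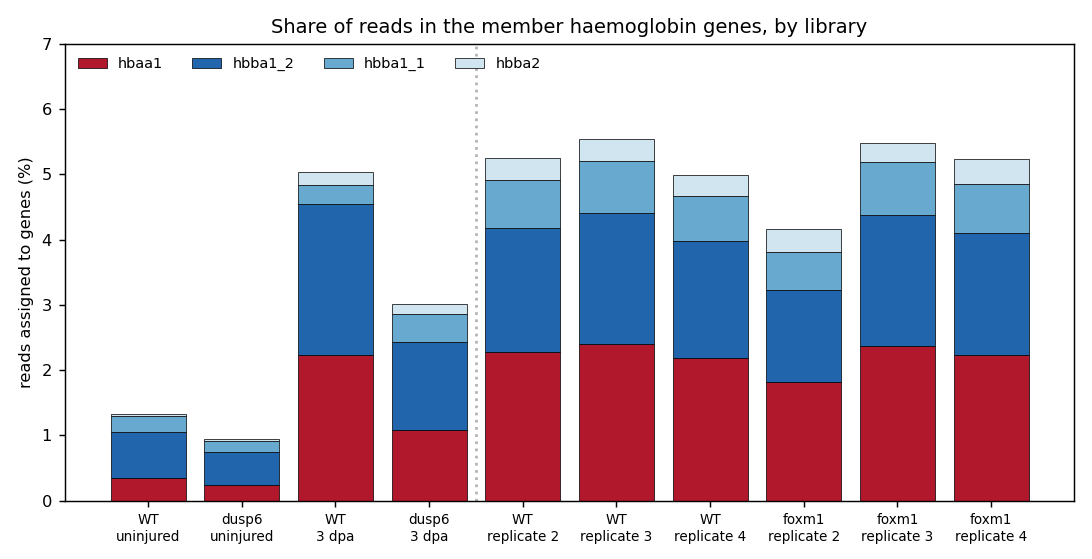
Share of the reads assigned to genes (%, bars start at 0) in the 4 member haemoglobin rows, stacked by row, in each of the 10 libraries, with experiment 1 left of the dotted line and experiments 2 to 4 right of it. The 2 uninjured libraries reach 0.941% and 1.33%, and the 8 libraries at 3 dpa reach 3.01% to 5.54%.

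Levels are given below as transcripts per 1000000 (TPM), which correct for gene length. hbaa1, the alpha chain member, stood at 9099 TPM in the WT uninjured and at 6453 TPM in the dusp6 mutant uninjured library. At 3 dpa in experiment 1, hbaa1 stood at 59674 TPM in WT and 28369 TPM in dusp6 mutant ventricles. The other WT libraries at 3 dpa held 61492, 64770 and 58276 TPM of hbaa1, so that the 4 WT libraries lay close together and the dusp6 mutant library lay well below them. The log2 fold change of hbaa1 on normalised counts was 2.09 ± 0.53 (SE), with an adjusted p of 0.134 in edgeR's quasi-likelihood test and 6.27e-06 to 0.592 over the alternatives.

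hbba2, a beta chain gene present at lower levels, showed the most even difference between states. It stood at 778 and 708 TPM in uninjured WT and dusp6 mutant ventricles. At 3 dpa the corresponding values of hbba2 were 5107 and 4047 TPM. The groups did not overlap and the genotypes lay close together in both states. Its log2 fold change was 2.26 ± 0.29 (SE; edgeR adjusted p = 0.0674, 1.01e-16 to 0.432 over the alternatives). WT replicates 2 to 4 held 8855, 8808 and 8561 TPM of hbba2, all above the WT library of experiment 1 at the same stage.

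The 2 rows named hbba1 behaved unlike each other in the WT libraries of experiment 1, but not in its dusp6 mutant libraries. hbba1_2, the more abundant row, stood at 18227 and 12917 TPM at rest in WT and dusp6 mutants. At 3 dpa in experiment 1 the row hbba1_2 reached 60633 and 35059 TPM, with no overlap between the states. Its log2 fold change was 1.23 ± 0.50 (SE; edgeR adjusted p = 0.252, 0.00207 to 0.746 over the alternatives). hbba1_1 stood at 6639 and 4433 TPM in the uninjured WT and dusp6 mutant pools, and at 8243 and 11589.9 TPM at 3 dpa. After normalisation of the counts, the WT library at 3 dpa was 0.900 times the WT uninjured one for hbba1_1, while the dusp6 mutant pair differed by 2.19 times in the other direction. The states thus overlapped for hbba1_1 on normalised counts, though not in TPM. For hbba1_2 the ratios of 3 dpa to uninjured were 2.40 in WT and 2.26 in dusp6 mutants. The rows thus parted only in the WT pair, with 1 library per state. For hbba1_1 the log2 fold change was 0.51 ± 0.44 (SE; edgeR adjusted p = 0.564), a difference smaller than the spread between libraries of 1 state. WT replicates 2 to 4, at 20462, 22345 and 19470.1 TPM of hbba1_1, were all above the 8243 TPM of the WT library of experiment 1, although all 4 are labelled WT at 3 dpa.

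**Figure D2:**
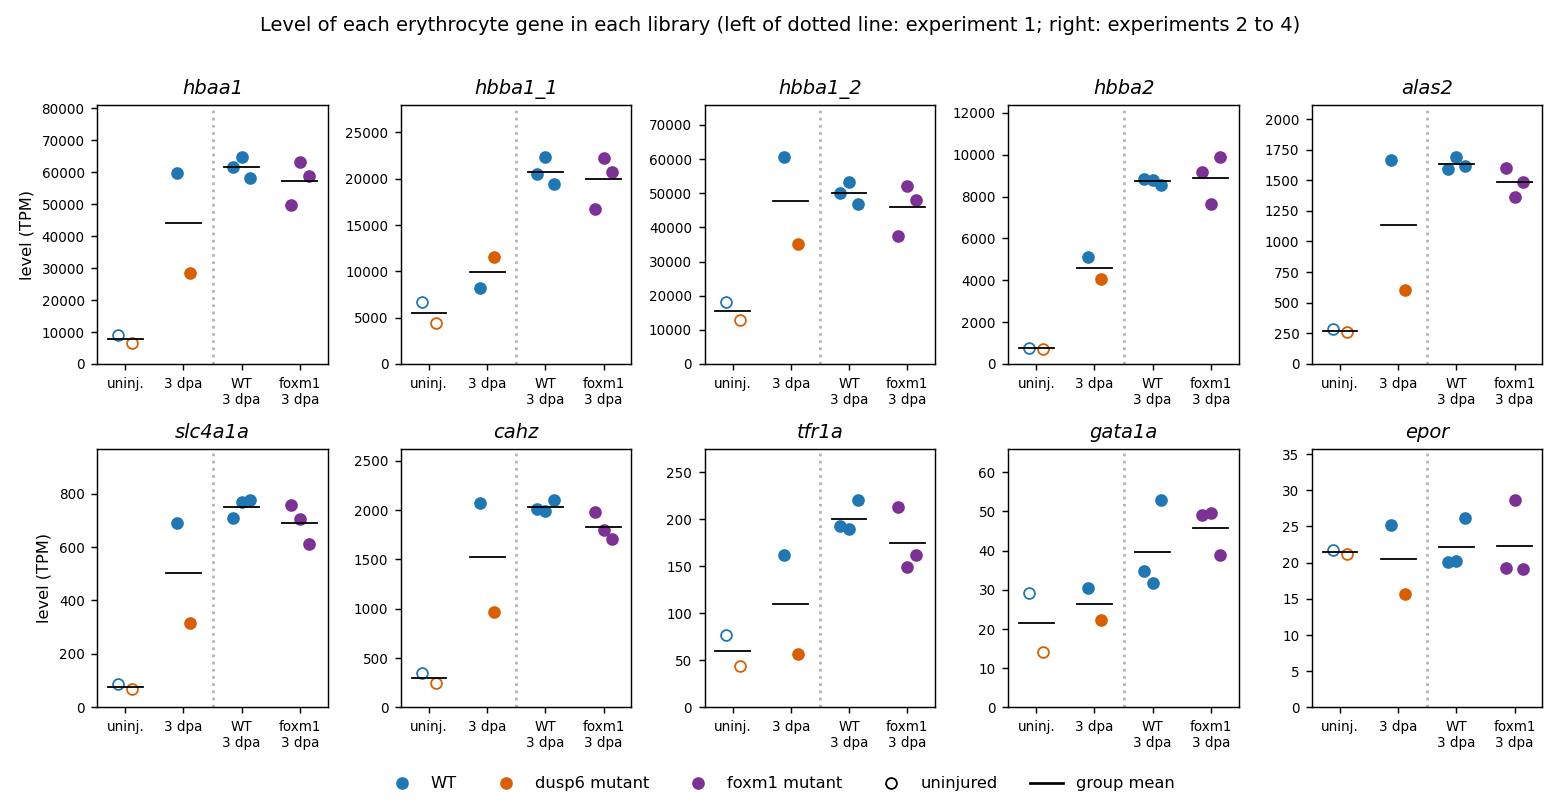
Level (TPM, axes start at 0) of each of the 10 member rows in each library, coloured by genotype, with open circles for uninjured ventricles and black lines for the mean of the libraries in a column. The uninjured libraries lie below every library at 3 dpa for hbaa1, hbba1_1, hbba1_2, hbba2, alas2, slc4a1a and cahz, whereas epor and gata1a overlap between the states.

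The make-up of adult haemoglobin transcripts differed between uninjured and injured ventricles as well as their amount. Of the summed TPM of the 6 adult rows, hbaa1 made up 18.0% and 17.6% in the uninjured libraries. At 3 dpa its part was 37.4% in WT and 26.1% in dusp6 mutants of experiment 1, and 34.7% to 36.4% in experiments 2 to 4. The alpha row si:ch211-5k11.8 made up 30.3% and 32.2% in the uninjured libraries and 11.78% to 23.5% at 3 dpa. The order of these alpha rows was thus turned around. si:ch211-5k11.8 stood at 1.69 and 1.83 times the level of hbaa1 in the uninjured libraries, and at 0.372 (WT) and 0.901 times (dusp6 mutant) at 3 dpa. In experiments 2 to 4 it stood at 0.324 to 0.392 times hbaa1. From uniquely mapped reads per exon length, the same ratio was 1.69 and 1.83 in the uninjured libraries and 0.373 and 0.901 at 3 dpa in experiment 1. hbaa2 and hbba2, the least abundant pair, made up 0.974% and 1.54% of the adult total in the WT uninjured library and 2.37% and 3.20% in WT at 3 dpa. hbaa2 stood at 493 and 379.6 TPM without injury in WT and dusp6 mutants and at 3779.9 and 4251 TPM at 3 dpa. Its log2 fold change of 2.85 ± 0.33 (SE; edgeR adjusted p = 0.0674, 1.67e-17 to 0.364 over the alternatives) was not called by edgeR and was called higher by DESeq2. si:ch211-5k11.8 had a log2 fold change of 0.46 ± 0.44 (SE; edgeR adjusted p = 0.602).

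The ratio of alpha to beta rows moved less than the make-up of either. It was 0.972 and 1.03 in the uninjured libraries, 1.16 and 1.15 at 3 dpa in experiment 1, and 1.11 to 1.21 in experiments 2 to 4. No library at 3 dpa had a ratio as low as an uninjured one. The means in experiment 1 were 1.00 ± 0.0430 (SD, n = 2) uninjured and 1.15 ± 0.00720 (SD, n = 2) at 3 dpa, with an exact permutation p of 0.33, the smallest possible. Among the beta rows, hbba1_1 stood at 0.364 and 0.343 times hbba1_2 in the uninjured libraries and at 0.331 times in the dusp6 mutant library at 3 dpa, but at 0.136 times in the WT library at 3 dpa of experiment 1. In experiments 2 to 4 it stood at 0.408 to 0.444 times hbba1_2. The WT 3 dpa library of experiment 1 thus stood apart from all 9 others in this ratio, which was 0.133 in its uniquely mapped reads and 0.323 to 0.365 in those of the other 9.

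**Figure D3:**
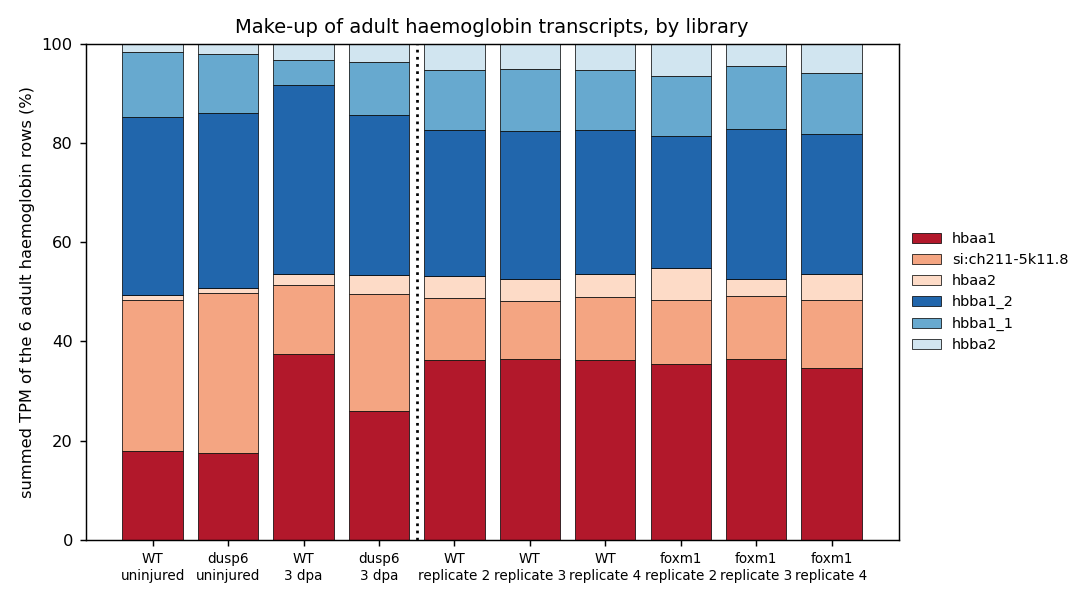
Percentage of the summed TPM of the 6 adult haemoglobin rows that each row makes up, in each library (red shades alpha rows, blue shades beta rows, dotted line between experiment 1 and experiments 2 to 4). hbaa1 makes up 17.6% and 18.0% in the uninjured libraries and 26.1% to 37.4% in the libraries at 3 dpa.

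Among genes of haem synthesis, the erythroid enzyme alas2 was higher at 3 dpa in experiment 1. It stood at 286 and 259 TPM in uninjured WT and dusp6 mutant ventricles. At 3 dpa, alas2 stood at 1664 TPM in WT and 607 TPM in dusp6 mutant ventricles, and at 1591, 1690.1 and 1613 TPM in WT replicates 2 to 4. The states did not overlap, and the dusp6 mutant library was lower than every other library at 3 dpa. The log2 fold change was 1.62 ± 0.47 (SE; edgeR adjusted p = 0.157, 0.000249 to 0.634 over the alternatives). It was 0.90 without the WT library at 3 dpa, a difference that moved by 1.65 times in fold. alas1, the form that other tissues use for their own haem, had a log2 fold change of -1.51 (edgeR adjusted p = 0.200), and the mitochondrial proteins glrx5 and tmem14ca had -0.80 and -0.35. Of the 18 other genes of haem synthesis and its mitochondrial transport, 10 had a positive log2 fold change and the median was 0.14, beside -0.0046 over all 20408 genes tested. edgeR called none of them, and DESeq2 called hmbsb, uros and urod higher, enzymes of the steps after Alas2. Of all genes tested, DESeq2 called 6.15% higher and 1.31% lower at 3 dpa, the shares to set beside its calls in this and the later lists. hmbsb stood at 7.42 and 5.50 normalised counts per 1000000 (CPM) at rest in WT and dusp6 mutants and at 79.6 and 29.4 CPM at 3 dpa.

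slc4a1a, the anion exchanger, differed between states by about as much as hbaa1. It stood at 87.2 and 68.9 TPM in the uninjured WT and dusp6 mutant pools. At 3 dpa slc4a1a stood at 690.5 and 316 TPM, and WT replicates 2 to 4 held 709, 767 and 774 TPM. On the log2 scale slc4a1a differed by 2.28 ± 0.40 (SE; edgeR adjusted p = 0.0843, 5.39e-07 to 0.444 over the alternatives). Of 15 further genes of the red cell membrane and its skeleton that were tested, 6 had a positive log2 fold change and the median was -0.05. The most abundant of them were aqp1a.1, a water channel, with a log2 fold change of 0.43, sptb, the erythroid beta spectrin, with -0.05, and rhag, a gas and ammonium channel, with 1.09. DESeq2 called rhag higher and edgeR called none of the list.

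cahz, the carbonic anhydrase of zebrafish red cells, stood at 347 and 245 TPM without injury in WT and dusp6 mutants. At 3 dpa cahz stood at 2074 TPM in WT and 969 TPM in dusp6 mutant ventricles, and at 2015, 1986 and 2097 TPM in WT replicates 2 to 4. The uninjured libraries were the lowest and the dusp6 mutant library was the lowest of those at 3 dpa. On the log2 scale cahz differed by 1.92 ± 0.41 (SE; edgeR adjusted p = 0.106, 4.45e-05 to 0.489 over the alternatives). The most abundant genes of the list of other red cell enzymes and antioxidants were prdx2, a peroxiredoxin, gpx1a, a glutathione peroxidase, and sod1, a superoxide dismutase, whose log2 fold changes were 0.72, -0.02 and -0.34. None of these 3 was called by edgeR or DESeq2. Of the 13 genes of this list tested, 5 had positive log2 fold changes and the median was -0.34. DESeq2 called txn (thioredoxin, 3.13 on the log2 scale) and blvrb (a biliverdin reductase, 0.99) higher and gpx4a (a glutathione peroxidase, -1.45) lower, and edgeR called none.

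tfr1a, the receptor that brings iron into the red cell precursor, varied with the library more than with the state. It stood at 77.3 TPM in the WT and 43.7 TPM in the dusp6 mutant uninjured library. At 3 dpa tfr1a stood at 162 TPM in WT and 56.7 TPM in dusp6 mutant ventricles, so that the dusp6 mutant library at 3 dpa was below the WT uninjured one. The log2 fold change was 0.44 ± 0.50 (SE; edgeR adjusted p = 0.670), and it was -0.31 without the WT library at 3 dpa. WT replicates 2 to 4 held 193, 189.8 and 220.0 TPM of tfr1a. Of 14 genes of iron uptake, storage and export, 8 had a positive log2 fold change and the median was 0.18. The most abundant, fth1a and zgc:56095, both ferritin genes, had log2 fold changes of 0.16 and 1.19, and ncoa4, the receptor that delivers ferritin for breakdown, had 0.20. edgeR called none of the list, and DESeq2 called tfa (transferrin), steap4, hamp (hepcidin) and zgc:56095 higher, against 6.15% of all genes. The levels of hamp were very low, at 0.0165 and 0.0356 CPM in the uninjured WT and dusp6 mutant libraries and 1.94 and 0.173 CPM at 3 dpa.

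The regulators gata1a and epor overlapped between the states on normalised counts. Neither passed edgeR's test, which no member passed, and DESeq2 called neither. gata1a stood at 29.1 and 14.1 TPM in uninjured WT and dusp6 mutant ventricles, and at 30.6 and 22.3 TPM at 3 dpa. Its log2 fold change was -0.12 ± 0.36 (SE; edgeR adjusted p = 0.885), and its sign turned on the TPM scales, where the values were 0.34 and 0.36 with pseudocounts of 1 and 0.1. epor stood at 21.7 and 21.3 TPM at rest in WT and dusp6 mutants, and at 25.2 and 15.7 TPM at 3 dpa, so the injured libraries lay on either side of the uninjured ones. For epor the log2 fold change was -0.24 ± 0.26 (SE; edgeR adjusted p = 0.655). In experiments 2 to 4, epor stood at 19.1 to 28.6 TPM and gata1a at 31.8 to 52.8 TPM.

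Of 17 further erythroid transcription factors tested, 7 were positive at 3 dpa and the median log2 fold change was -0.17. The states did not overlap for 10 of them, 6 higher and 4 lower at 3 dpa, beside the 28.0% and 27.7% of all genes that did so in these directions. The most abundant were hemgn, a nuclear protein of erythroid cells, klf6a and klf17, the Krüppel-like factor of zebrafish erythroid cells, with log2 fold changes of 1.34, 1.40 and 1.45. DESeq2 called hemgn, klf6a and myb higher and edgeR called none. myb, a factor of blood progenitors, stood at 0.479 and 0.730 CPM in the uninjured WT and dusp6 mutant libraries and at 12.5 and 2.79 CPM at 3 dpa. Of 11 genes of erythropoietin signalling, 5 were positive and the median log2 fold change was -0.17. epoa, the hormone itself, had a log2 fold change of -0.57, jak2a, the kinase bound to its receptor, had -0.23, and socs3a, an inhibitor of that kinase, had 2.52. None of these 3 was called by either tool, and DESeq2 called socs3b higher.

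Genes of haem breakdown and of red cell maturation and mitophagy were examined as well. hmox1a, haem oxygenase, stood at 5.44 and 15.9 CPM in the uninjured WT and dusp6 mutant pools and at 201 and 33.2 CPM at 3 dpa. Its log2 fold change was 3.45 ± 1.02 (SE; edgeR adjusted p = 0.160), and DESeq2 called it higher. blvra, a biliverdin reductase, had a log2 fold change of -0.14, and hp_2, a row of haptoglobin, which binds free haemoglobin, had 1.31. Of 7 genes of haem breakdown 2 had positive log2 fold changes, with a median of -0.23, and of 6 genes of red cell maturation and mitophagy also 2, with a median of -0.16. The genes of the latter list with the highest levels, bnip3lb, ulk1a and tspo, had log2 fold changes of -0.17, -0.68 and 0.86, and neither edgeR nor DESeq2 called them.

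Over the whole comparison of 3 dpa with uninjured ventricles, edgeR's quasi-likelihood test called 0 of the 10 members. A call required that the log2 fold change be at least 0.59 in size with the adjusted p no higher than 0.01, and the test called 0.0% of the 20408 genes in either direction. At an unadjusted p under 0.05, 5 members were higher (hbaa1, hbba2, alas2, slc4a1a and cahz), against 13.6% of all genes, and none was lower, against 7.38%. The groups did not overlap for 6 members, those 5 and hbba1_2, all higher at 3 dpa, against 28.0% of all genes that were higher without overlap. None was lower without overlap, against 27.7% of all genes. The median log2 fold change of the 10 members was 1.43, beside -0.0046 over all genes tested. The members are not separate observations, as several followed the summed haemoglobin level closely over the libraries. DESeq2's Wald test called the same 6 members higher, against 6.15% of all genes. A fit of all 10 libraries also called these 6 higher, against 8.8% of all genes. Its spread was estimated only from experiments 2 to 4, since each genotype and state of experiment 1 formed a group of 1 library. Without the WT library at 3 dpa the smallest change among these 6 was 0.90 (alas2) and the largest 2.21 (hbba2) on the log2 scale.

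**Figure D4:**
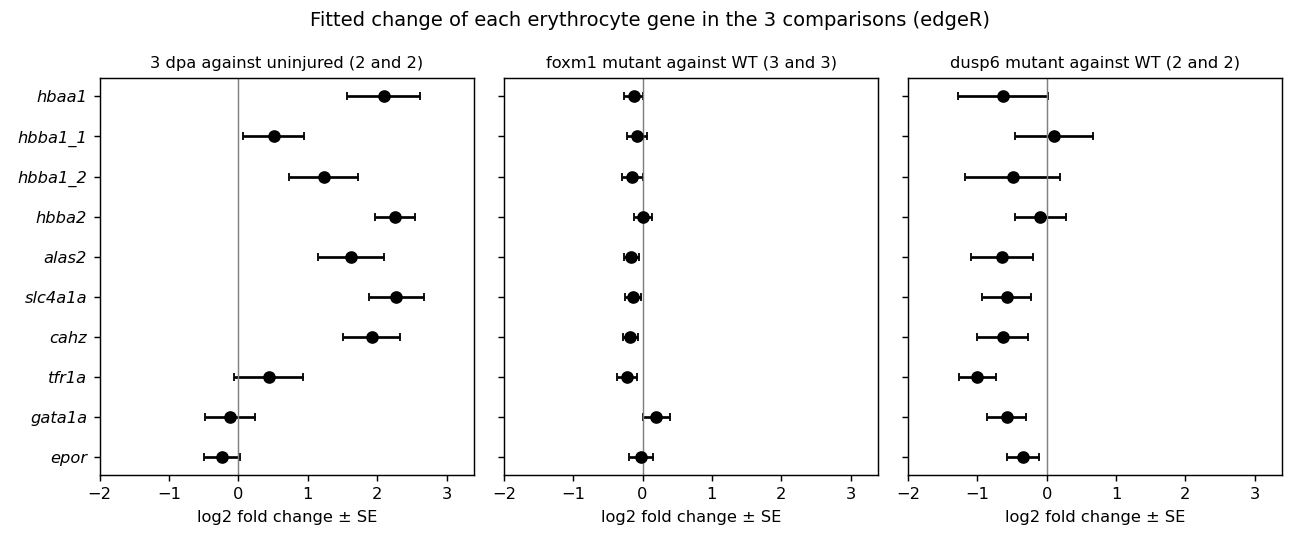
Log2 fold change with its standard error of each member row in the comparisons of 3 dpa with uninjured ventricles (2 and 2 libraries), of foxm1 mutants with WT at 3 dpa (3 and 3) and of dusp6 mutants with WT (2 and 2, with state as a second term), from edgeR. hbaa1, hbba2, slc4a1a and cahz lie near 2 in the left panel, and all members lie between -0.22 and 0.20 in the middle panel.

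The level of the other members was also set against that of hbaa1. slc4a1a stood at 9.59 and 10.7 TPM per 1000 TPM of hbaa1 without injury in WT and dusp6 mutants and at 11.6 and 11.1 at 3 dpa. cahz stood at 38.1 and 37.9 per 1000 TPM of hbaa1 in the uninjured libraries and at 34.8 and 34.2 at 3 dpa. Over all 10 libraries, slc4a1a ranged over 9.59 to 15.2 and cahz over 28.5 to 39.8 per 1000 TPM of hbaa1, while hbaa1 itself ranged from 6453 to 64770 TPM. alas2 was somewhat lower relative to hbaa1 after injury, at 31.4 and 40.2 per 1000 in the uninjured libraries and 21.4 to 32.2 at 3 dpa. tfr1a, gata1a and epor did not keep pace with hbaa1. tfr1a stood at 8.50 and 6.77 per 1000 TPM of hbaa1 in the uninjured libraries and at 2.00 to 4.29 at 3 dpa. gata1a went from 3.20 and 2.19 to 0.490 to 0.988, and epor from 2.39 and 3.30 to 0.312 to 0.553, with no overlap between the states. These ratios depend on the reference, since the part of hbaa1 in the adult total itself differed between the states. Per 1000 TPM of the 6 adult rows together, slc4a1a stood at 1.72 and 1.88 in the uninjured libraries of WT and dusp6 mutants and at 4.33 and 2.90 at 3 dpa. On this reference cahz stood at 6.86 and 6.67 uninjured and at 13.0 and 8.90 at 3 dpa, so that both genes were higher at 3 dpa and did not overlap. alas2 (5.66 and 7.06 uninjured, 10.4 and 5.57 at 3 dpa) and, over the 8 libraries at 3 dpa, tfr1a (1.19 to 1.53 uninjured, 0.521 to 1.52 at 3 dpa) overlapped between the states. gata1a and epor remained lower at 3 dpa, at 0.179 to 0.350 and 0.113 to 0.165 against at least 0.385 and 0.429 uninjured.

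**Figure D5:**
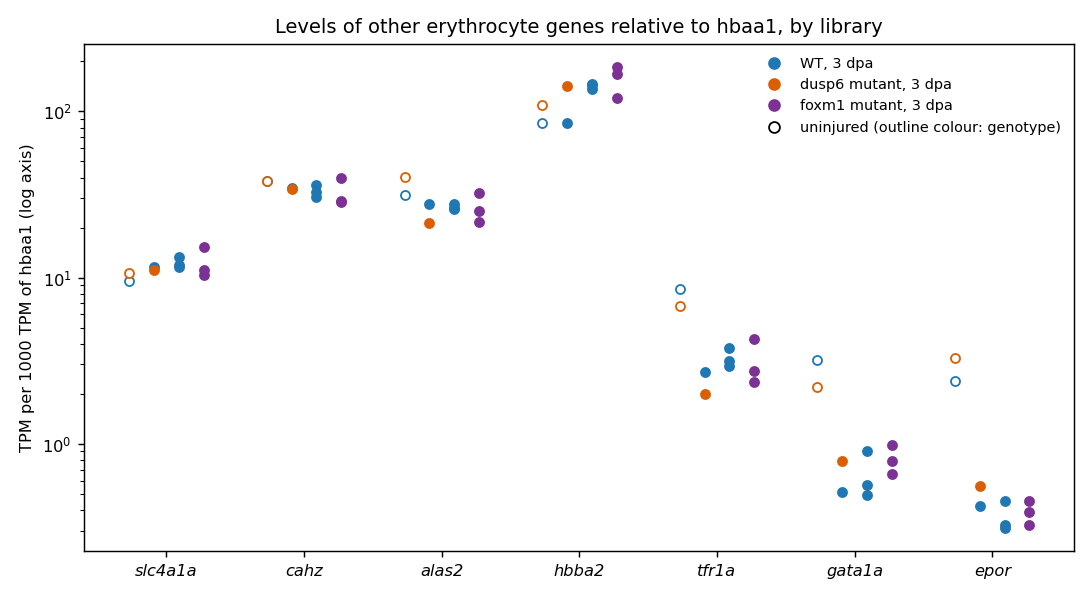
Level of 7 members relative to hbaa1 (TPM per 1000 TPM of hbaa1, log axis) in each library, with columns for uninjured, 3 dpa of experiment 1, WT of experiments 2 to 4 and foxm1 mutants from left to right within each gene. slc4a1a and cahz stay within 9.59 to 15.2 and 28.5 to 39.8, and epor goes from 2.39 and 3.30 uninjured to at most 0.553 at 3 dpa.

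Loss of foxm1, a transcription factor of the cell cycle, was examined in 3 WT and 3 mutant libraries at 3 dpa. No member passed the test between the genotypes under edgeR or DESeq2, and for 8 of the 10 the groups overlapped on normalised counts. The member haemoglobin share was 5.26% ± 0.271 (SD, n = 3) in WT and 4.96% ± 0.701 (SD, n = 3) in foxm1 mutant ventricles, with an exact permutation p of 0.6 where 0.1 is the smallest possible. Replicate 2 of the mutants was the lowest of the 6, and without it the difference changed sign, from -0.305 to 0.0931 percentage points. hbaa1 stood at 49638, 63243 and 58814 TPM in mutant replicates 2, 3 and 4, against the 58276 to 64770 TPM of WT. The mutant libraries held 16723, 22264 and 20756 TPM of hbba1_1 and 37626, 52177 and 48109 TPM of hbba1_2. hbba2 stood at 9184, 7656 and 9895 TPM in the mutants, on either side of the narrow WT range.

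alas2 stood at 1598, 1366 and 1489 TPM in foxm1 mutant replicates 2, 3 and 4. cahz stood at 1976, 1801 and 1711 TPM in the same libraries. On normalised counts, these were the only members whose mutant libraries were all below the WT libraries, 2 of 10 against 4.38% of the 17618 genes tested. For alas2 the gap was narrow, with 2301 CPM in mutant replicate 2 against 2317 CPM in WT replicate 4. In TPM the groups overlapped for alas2, as mutant replicate 2 (1598) was above WT replicate 2 (1591). No member was higher in all mutant libraries, against 4.85% of genes. The log2 fold changes of alas2 and cahz were -0.16 ± 0.11 and -0.18 ± 0.10 (SE), with edgeR adjusted p of 0.999 and 0.994. slc4a1a stood at 756, 706 and 609.8 TPM, tfr1a at 213, 149 and 162 TPM, gata1a at 49.1, 49.7 and 38.8 TPM and epor at 19.2, 28.6 and 19.1 TPM. The log2 fold changes of all 10 members lay between -0.22 (tfr1a) and 0.20 (gata1a), with standard errors of 0.10 to 0.19. edgeR called 0 members, against 0.0% of all genes higher and 0.0114% lower, with 0.05 as the limit for the adjusted p. DESeq2 called 0 members, against 0.369% of genes higher and 0.295% lower, and the fit of all 10 libraries called 0 members, against 0.00998% of genes lower. The medians of the 8 lists of non-globin genes lay between -0.19 and 0.0045 on the log2 scale, and neither tool called a gene of them. At an unadjusted p under 0.05 no member differed, against 2.75% of genes higher and 2.88% lower.

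The ratio of si:ch211-5k11.8 to hbaa1 was 0.339 ± 0.0135 (SD, n = 3) in WT and 0.369 ± 0.0224 (SD, n = 3) in foxm1 mutants, with an exact permutation p of 0.2. The ratio of hbba1_1 to hbba1_2 was 0.415 ± 0.00642 in WT and 0.434 ± 0.00919 in the mutants (SD, n = 3 each). These groups did not overlap, at the smallest exact permutation p possible, 0.1. In relation to hbaa1, slc4a1a stood at 12.2 ± 0.937 in WT and 12.3 ± 2.61 in mutants per 1000 TPM (SD, n = 3 each; exact permutation p = 1.0). The make-up seen in WT ventricles at 3 dpa was thus found in the mutants within a few percentage points, with hbaa1 at 36.3% ± 0.0965 of the adult total in WT and 35.5% ± 0.885 in mutants (SD, n = 3 each).

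Embryonic globin genes, which adult fish use little, were found at low levels. Of the rows listed as other haemoglobin genes, 11 could be tested between foxm1 mutants and WT, including the adult rows hbaa2 and si:ch211-5k11.8. All but hbaa2 had a negative log2 fold change, and the median was -0.99, beside -6.6e-04 over all genes. The adult rows hbaa2 (0.053) and si:ch211-5k11.8 (-0.0059) were near 0 and changed sign when single libraries were left out. zgc:163057, on chromosome 12, was near 0 as well (-0.022), at 42.8 to 48.7 CPM in WT and 39.2 to 52.5 CPM in mutants. For 3 of the 11 rows all mutant libraries were below WT, against 4.38% of all genes, and these were the embryonic rows hbae1.3_1, hbae1.3_2 and hbbe1.1. hbae1.3_1, an embryonic alpha globin row (chromosome 3, 55127549 to 55128258), stood at 40.5, 31.7 and 25.2 CPM in WT replicates 2, 3 and 4. In the mutants it stood at 18.4, 14.9 and 13.6 CPM, all below WT. The log2 fold change of hbae1.3_1 was -1.05 ± 0.20 (SE; edgeR adjusted p = 0.362), and DESeq2 called it lower. hbae1.3_2 stood at 16.2, 13.4 and 11.7 CPM in WT and 7.46, 9.05 and 3.72 CPM in mutants. For hbbe1.1, with 6 to 20 reads in a library, the levels were 0.985, 1.17 and 1.09 CPM in WT and 0.329, 0.764 and 0.418 CPM in mutants. edgeR called neither of them, and DESeq2 did not call hbae1.3_2 and gave no adjusted p for hbbe1.1. Another embryonic row, hbbe2 on chromosome 12, stood at 20.5, 4.73 and 16.9 CPM in WT and 1.26, 6.82 and 2.88 CPM in mutants, and these groups overlapped. In experiment 1, hbae1.3_1 was at or below 3.78 CPM in all 4 libraries, far under the levels of experiments 2 to 4. Its near copies and low counts make the split of reads between the embryonic rows uncertain, and hbae3 and hbbe3 had at most 2 reads in any library.

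The dusp6 mutant libraries were lower than the WT libraries of the same state for most members. Both at rest and at 3 dpa, 9 of the 10 members were lower in the dusp6 mutant library on normalised counts, against 29.4% of the 20408 genes tested, and none was higher in both states, against 28.7%. The exception was hbba1_1, which was lower at rest and higher at 3 dpa. The members are not separate observations, since cahz, slc4a1a and alas2 followed the summed haemoglobin level over the 10 libraries (r = 0.983, 0.982 and 0.964). tfr1a had the largest difference, at 77.3 against 43.7 TPM at rest and 162 against 56.7 TPM at 3 dpa. Its log2 fold change, with the state as a second term, was -1.00 ± 0.27 (SE; edgeR adjusted p = 0.549, 0.0327 to 0.998 over the alternatives). The log2 fold changes were -0.65 ± 0.45 for alas2, -0.63 ± 0.37 for cahz and -0.63 ± 0.64 for hbaa1 (SE; edgeR adjusted p = 0.716, 0.689 and 0.806). The median over the 10 members was -0.58, beside -0.0076 over all genes.

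edgeR called 0 of the 10 members between dusp6 mutant and WT ventricles, with 0.0% of all genes called in either direction. At an unadjusted p under 0.05, 1 member was lower, tfr1a, against 3.97% of all genes, and none was higher, against 3.92%. DESeq2 called 0 members, against 0.735% of genes higher and 0.701% lower. The medians of the 8 lists of non-globin genes lay between -0.40 and 0.31, and neither tool called a gene of them. The fit of all 10 libraries called tfr1a, cahz and alas2 lower, against 1.5% of all genes, and none higher, against 1.79%. The spread in that fit came only from the WT and foxm1 mutant libraries of experiments 2 to 4, and from no dusp6 mutant library. With 1 library per genotype and state, a difference between the genotypes in the response to injury had no test. From the uninjured to the 3 dpa library, normalised counts were 4.70 times higher for hbaa1 in WT and 3.66 times in dusp6 mutants. The corresponding ratios were 4.14 and 1.95 for alas2, 5.69 and 3.83 for slc4a1a, 4.13 and 3.32 for cahz, and 4.78 and 4.77 for hbba2.

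Genes outside the haemoglobin lists were ranked by how closely their level followed the summed member haemoglobin genes over the 10 libraries. Among 9171 genes with at least 10 CPM on average, the closest were cgna (r = 0.992), si:cabz01074946.1 (0.991), si:ch211-74f19.2 (0.986), cobll1b (0.986), si:dkey-5n18.1 (0.985), capgb (0.984), ptprea (0.984) and anxa4 (0.983). cgna, a cingulin of cell junctions, stood at 4.56 and 2.84 CPM in the uninjured libraries, 27.5 and 14.4 CPM at 3 dpa in experiment 1 and 21.6 to 30.6 CPM in experiments 2 to 4. Of the other members, cahz ranked 10 (r = 0.983), slc4a1a 12 (0.982) and alas2 105 (0.964). tfr1a ranked 1582 (0.806), gata1a 2906 (0.560) and epor 5278 (-0.233). These are Pearson correlations of log2 CPM as a description of 10 libraries, whose state, experiment and depth vary in blocks.

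Markers of some other cell types differed between the states as well. The summed level of 8 cardiomyocyte rows was 74669 and 76609 TPM in the uninjured libraries and 34801 to 52787 TPM at 3 dpa, with 3 of 8 log2 fold changes positive. All 6 macrophage markers had positive log2 fold changes, and their summed level went from 46.0 to 53.4 TPM uninjured to 244 to 306 TPM at 3 dpa in experiment 1. All 7 neutrophil rows were positive as well, with summed levels of 132 to 138 TPM and 212 to 282 TPM. Lymphocyte markers summed to 2.10 to 2.29 TPM uninjured and 3.13 to 3.19 TPM at 3 dpa, with 3 of 5 positive. In experiment 1 the sums of the other lists overlapped between the states. Thrombocyte markers summed to 72.8 to 97.1 TPM uninjured and 90.8 to 129 TPM at 3 dpa, with 4 of 7 positive and a median log2 fold change of 0.03. Markers of endothelium and endocardium summed to 200.5 to 210.1 TPM and 179 to 221 TPM, with 1 of 6 positive. Blood progenitor markers summed to 83.9 to 94.9 TPM and 90.2 to 132 TPM, with 2 of 4 positive. No marker of these lists was at 0 in every library. The part that these shifts and the lower mitochondrial share have in the differences of the erythrocyte genes was not tested.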

How the data were processed

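RNA of pooled zebrafish ventricles was sequenced by the study. In CLC Genomics Workbench, the authors aligned the reads with the GRCz11 genome and obtained counts for each gene. The deposited table of each library holds read counts per gene (total, unique, exon and intron reads) and TPM, each library's counts per exon length scaled by the authors to 1000000. The deposited comparison tables hold only the authors' fold changes and p-values and were not used, and ventricles at 7 dpa, for which no per-library values were used, were not analysed here.

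Total counts were filtered with filterByExpr (10 counts at the median depth and 15 in total), normalised by TMM and tested in edgeR 4.0.16 (R 4.3.3) by its quasi-likelihood F test, with Benjamini-Hochberg adjustment over all genes tested. The main fit of 3 dpa against uninjured ventricles had no genotype term, and genotype entered as a block only among the alternatives. Calls needed a size of 0.59 or more on the log2 scale and an adjusted p of at most 0.01 (3 dpa against uninjured) or 0.05 (the other comparisons). Normalised counts per 1000000 come from the fit of the experiment. They come from all 10 libraries for the ranking of genes by likeness and for the flagged CPM of hbba2 and cahz in WT libraries at 3 dpa. For the ranking, 0.5 CPM was added before logs. Alternatives were DESeq2 1.42.0, limma 3.58.1 on log2(TPM + 1) and log2(TPM + 0.1), RLE size factors, no filter, unique or exon reads, library sizes without haemoglobin and mitochondrial genes, all 10 libraries in 1 fit, blocks and the omission of each library. Shares and ratios were compared by exact two-sided permutation tests (scipy). The scripts were tested on simulated data. All pairs of libraries of a group differed by more than counting noise, with a chi-square per degree of freedom of at least 6.14.

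The members, lists and markers were chosen with earlier results of these data known. All members are named, and of each list the 3 genes with the highest mean TPM and any gene called by a test, with the 8 genes most like the summed haemoglobin level. Gene names are those of the tables, and synonyms are from RefSeq.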

Additional observations from a re-analysis of the deposited data

Results flagged for a closer look

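Among the 4 WT libraries at 3 dpa, the library of experiment 1 was set apart from the other 3 on normalised counts for hbba2, at 1669 CPM against 3042 to 3273 CPM, and for cahz, at 1896 CPM against 2088 to 2117 CPM. For cahz the gap was small beside that of hbba2, and in TPM it was not there, at 2074 TPM against 1986 to 2097 TPM. These were 2 of 11 measures examined, where chance sets about 1 in 20 apart. Rows that were not flagged did not all agree between the experiments. hbba1_1 stood at 8243 TPM in the library of experiment 1 against 19470 to 22345 TPM. hbaa1, at 59674 TPM in that library, lay within the 58276 to 64770 TPM of the other 3. On counts normalised within experiment 1 and within experiments 2 to 4, hbaa1 was lower in that library, at 18159 CPM against 21362 to 24799 CPM. This library comes from experiment 1, which had deeper sequencing than experiments 2 to 4, so experiment and depth cannot be told apart. The methods of the study name sequencing at Pittsburgh and at Tufts but not which libraries went to each.

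On normalised counts, hbba1_1 went in opposite directions after injury in the 2 genotypes. Its log2 ratio of 3 dpa to uninjured was 1.13 in dusp6 mutants and -0.15 in WT. gata1a likewise had a log2 ratio of 0.40 in dusp6 mutants and -0.47 in WT. The direction depends on the unit, since in TPM both genes were higher at 3 dpa in both genotypes (hbba1_1 from 6639 to 8243 in WT and 4433 to 11589.9 in dusp6 mutants, gata1a from 29.1 to 30.6 and 14.1 to 22.3). With 1 library each, these differences between genotypes were not tested.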

How the results depend on the processing

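For 3 dpa against uninjured ventricles, DESeq2's Wald test and the fit of all 10 libraries each called 6 members (hbaa1, hbba1_2, hbba2, alas2, slc4a1a and cahz) where edgeR's quasi-likelihood test called 0. No other alternative run for this comparison called a member at the limit of 0.01, the block of genotypes included. A limit of 0.05 for the adjusted p was applied only to edgeR's test with no library left out, and it called no member either. For dusp6 mutants against WT the fit of all 10 libraries called 3 members (tfr1a, cahz and alas2) and the others 0, and for foxm1 mutants every alternative called 0. Over all genes, DESeq2 and the 10-library fit called 1524 and 2713 genes at 3 dpa against 0, and without the dusp6 mutant library at 3 dpa edgeR called 173. DESeq2 called 117 genes in foxm1 mutants against 2 by edgeR, and 142 were called without WT replicate 4, 26 without foxm1 mutant replicate 4. In dusp6 mutants the counts were 293 (DESeq2) and 659 (all 10 libraries) against 0. The cause of these differences was not tested.

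Tests on TPM moved the median of all genes by 0.18 (pseudocount 1) and 0.30 (pseudocount 0.1) at 3 dpa, and by -0.14 in dusp6 mutants (pseudocount 0.1). With pseudocounts of 1 and 0.1 in turn, the log2 fold change at 3 dpa turned positive for gata1a (0.34 and 0.36), sptb (0.31 and 0.31), jak2a (0.21 and 0.22), gpx1a (0.33 and 0.33), sod1 (0.038 and 0.038), bnip3lb (0.16 and 0.16) and blvra (0.12 and 0.13). That of hbba1_1 in dusp6 mutants turned to -0.046 with both. ncoa4 turned to -0.015 with uniquely mapped reads. In foxm1 mutants, hbba2 turned to -0.00017 with library sizes without haemoglobin and mitochondrial genes and to -0.0053 with the replicate block, and epor to 0.0035 with exon reads.

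When libraries of experiment 1 were left out in turn, signs changed for epor (-0.57 to 0.048), gata1a (-0.54 to 0.46), tfr1a (-0.31 to 0.95), zgc:163057 (-0.13 to 0.41), fth1a (-0.38 to 0.57), sptb (-0.31 to 0.19), gpx1a (-0.25 to 0.21), bnip3lb (-0.51 to 0.12) and blvra (-0.34 to 0.045). In foxm1 mutants they changed for hbba1_1 (-0.17 to 0.035), hbba2 (-0.080 to 0.11), epor (-0.20 to 0.090), the adult rows hbaa2 (-0.032 to 0.21) and si:ch211-5k11.8 (-0.078 to 0.096), and the haemoglobin share (-0.566 to 0.0931 percentage points). hbae1.3_1 was called without WT replicate 4. With 1 library per genotype and state, the comparison of dusp6 mutants could not be fitted without a library. The share of reads kept its direction in all other alternatives.

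The labels number the foxm1 and WT libraries alike. Same-numbered libraries deviated from their group means with correlations of 0.0862, -0.0362 and 0.126, and differently numbered ones with -0.13 to 0.0859. With 3 libraries per genotype, these values cannot settle whether the numbers pair the libraries, and the main fit had no replicate block. With the replicate block, 1 gene and 0 members were called, against 2 genes and 0 members without it. Depth limited the members little, since the lowest count of a member in a library was 413 reads (epor).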
